A study of Mus musculus with 16 samples.

Results

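Sprr2k, Sprr1a, Crct1, Psors1c2, Krtdap and Krt13, genes of the terminal programme of stratified epithelia, were followed through 16 RNA sequencing libraries of mouse induced pluripotent stem cells (iPSCs) and embryoid bodies (EBs). They are 6 of the 23284 genes in the deposited expression table. They were picked by name with their values in these libraries already known, so their levels are given as a description and carry no test. All 6 reached at least 1 FPKM in at least 2 libraries, FPKM being a fragment count adjusted for the transcript's length and the library's size. This filter was passed through the groups in which each gene was high.

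The cells carry the alleles ColA1_miR203 and Rosa26rtTA, a doxycycline-inducible microRNA transgene and its inducer. The microRNA is miR-203. The iPSCs were reprogrammed in vitro from fibroblasts of embryos of this mouse model and grown over feeder cells, and EBs were made by hanging drop. Library titles join a prefix (KIX or KI), a letter (D or V) and either a number (1, 4 or 10, for iPSCs) or EB. None of these codes is defined in the labels, which list the same genotype and the same doxycycline treatment of 5 to 7 days for every library, and do not say how many iPSC clones were used. The series' design text names a time before doxycycline, later times after its withdrawal and EBs, but ties no code to a time, so groups are called by their codes. There were 8 groups, KIX and KI at number 1, at number 4, at number 10 and in EBs, each with 1 D and 1 V library, giving 12 iPSC and 4 EB libraries. D and V are not stated to come from separate cultures, and every p-value then reflects spread that may be technical.

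The outer layers of the epidermis are built by keratinocytes that leave the basal layer, change their keratins and assemble a cornified envelope, a shell of proteins cross-linked by transglutaminases beneath the plasma membrane. Many envelope proteins are encoded side by side in the epidermal differentiation complex on mouse chromosome 3, which holds the small proline-rich (Sprr) and late cornified envelope (Lce) families, loricrin and involucrin. miR-203 is a microRNA of the upper epidermal layers, known for repressing the basal cell regulator p63 as keratinocytes stop dividing. Sprr2k and Sprr1a encode cross-linked envelope proteins, and Crct1 encodes a cysteine-rich protein from the same complex. Psors1c2 lies beside the corneodesmosin gene Cdsn. Krtdap encodes a secreted protein of suprabasal keratinocytes. Krt13 is a type I keratin of suprabasal layers in internal stratified epithelia such as the oesophagus, so it belongs to the stratified programme and not to the cornified layer itself.

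The mature microRNA is shown because the row listed as Mir203 separates the libraries in which Krtdap and Krt13 differ, as given with their values. It is credited to RefSeq on GRCm38.p6, chr12:112130927-112130948, plus strand, with the seed (bases 2 to 8) in capitals.
mmu-miR-203-3p: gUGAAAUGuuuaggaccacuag
The DNA letters paired with this seed, CATTTCA, were found in none of the 6 members' annotated 3′ UTRs, which are 139 to 396 bases long. Across 20981 genes with a 3′ UTR (median length 954 bases) 16.01% hold it, so these UTRs are shorter than the median, and the absence says only that those letters are not in these windows.

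Promoters are shown because the first 3 below belong to genes highest at number 1 among the iPSC libraries and the last 2 to genes that differ between KIX and KI. RefSeq windows on GRCm38.p6 run from 250 bases before to 50 bases after each gene's start and matched 5 of the 6 members. The windows are chr3:92432332-92432631 on the plus strand for Sprr2k, chr3:92485832-92486131 on the minus strand for Sprr1a and chr17:35532951-35533250 on the plus strand for Psors1c2. For Krtdap the window is chr7:30787655-30787954 on the plus strand and for Krt13 it is chr11:100121517-100121816 on the minus strand. Capitals mark the TATA-type letters TATAAA, the AP-1 motif as TGANTCA, a KLF-type motif as CCACCC and an ETS-type motif as AGGAAG, searched on both strands, so GGGTGG is CCACCC on the other strand.
Sprr2k: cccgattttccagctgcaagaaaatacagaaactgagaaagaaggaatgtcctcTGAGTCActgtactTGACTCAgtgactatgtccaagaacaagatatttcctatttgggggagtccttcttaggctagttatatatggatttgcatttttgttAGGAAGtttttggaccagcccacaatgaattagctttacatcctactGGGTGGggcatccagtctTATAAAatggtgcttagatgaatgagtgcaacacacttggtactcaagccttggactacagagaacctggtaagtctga
Sprr1a: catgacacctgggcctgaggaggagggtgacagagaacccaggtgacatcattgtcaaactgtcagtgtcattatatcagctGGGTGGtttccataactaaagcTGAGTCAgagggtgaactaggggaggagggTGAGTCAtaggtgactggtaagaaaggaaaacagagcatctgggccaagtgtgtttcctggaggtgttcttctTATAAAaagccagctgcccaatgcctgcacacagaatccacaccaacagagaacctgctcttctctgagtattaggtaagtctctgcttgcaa
Psors1c2: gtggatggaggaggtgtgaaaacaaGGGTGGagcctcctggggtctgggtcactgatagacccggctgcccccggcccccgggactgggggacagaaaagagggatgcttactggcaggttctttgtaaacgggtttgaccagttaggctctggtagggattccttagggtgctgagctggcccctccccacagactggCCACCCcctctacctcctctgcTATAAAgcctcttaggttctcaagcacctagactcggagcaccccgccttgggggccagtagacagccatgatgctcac
Krtdap: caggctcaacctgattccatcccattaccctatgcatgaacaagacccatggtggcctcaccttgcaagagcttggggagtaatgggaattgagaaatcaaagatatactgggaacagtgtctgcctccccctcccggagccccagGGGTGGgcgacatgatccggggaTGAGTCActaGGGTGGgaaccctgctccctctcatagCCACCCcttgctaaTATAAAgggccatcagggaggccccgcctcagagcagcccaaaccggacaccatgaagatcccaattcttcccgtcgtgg
Krt13: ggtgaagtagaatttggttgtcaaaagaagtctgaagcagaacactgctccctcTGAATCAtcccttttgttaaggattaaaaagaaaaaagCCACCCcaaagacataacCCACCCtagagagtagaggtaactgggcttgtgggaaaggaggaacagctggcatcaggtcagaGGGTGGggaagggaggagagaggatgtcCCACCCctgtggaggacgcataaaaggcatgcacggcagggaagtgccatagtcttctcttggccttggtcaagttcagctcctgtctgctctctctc
No 2 of these matches overlapped. TATAAA was present in 4 of the 5 windows, at 29 bases before the start in Sprr2k and in Psors1c2, 30 in Krtdap and 43 in Sprr1a, against 13.6% of 32851 promoters of the same length. TGANTCA was present in 4 of the 5, against 7.81% of promoters. Sprr2k and Sprr1a each had 2 copies, Krtdap and Krt13 each had 1 copy, and Psors1c2 had no match. CCACCC was found in all 5 (31.5% of promoters) and AGGAAG in Sprr2k alone (35.4% of promoters). These are letter matches and not shown sites.

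The libraries were not keratinocyte cultures by their marker genes. Krt5, the basal keratin, reached at most 0.113 FPKM, Krt1, the suprabasal keratin, 0.156 FPKM, the desmosomal cadherin gene Dsg1a 0.0218 FPKM and Trp63, which encodes p63, 0.872 FPKM. Flg, the filaggrin gene, was not analysed here. The summed level of 10 pluripotency markers was 935 to 1822 FPKM in EBs and 3623 to 5296 FPKM in iPSCs. The summed level of 10 fibroblast markers, which feeder cells also express, was 24.1 to 489 FPKM in EBs and 1143 to 2566 FPKM in iPSCs. Total FPKM per library was 612598 to 724350, and the sequencing depth is unknown. In bulk RNA, fewer cells of a type and less RNA per cell cannot be told apart.

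Sprr2k lies at chr3:92432582-92433927 on GRCm38.p6. At number 1 it measured 18.1 and 11.4 FPKM in the KIX D and V libraries and 24.6 and 11.6 FPKM in the KI D and V libraries. At number 4 it measured 0.282 and 0.627 FPKM in KIX and 0.793 and 1.36 FPKM in KI, and at number 10 it measured 1.01 and 0.550 FPKM in KIX and 0.795 and 0.692 FPKM in KI. All 4 number 1 libraries stood above the other 12, and in the 4 EB libraries Sprr2k was listed at 0. On the log2(FPKM + 1) scale, which understates the change of low genes, number 4 against 1 differed by -3.27 ± 0.21 and number 10 against 1 by -3.24 ± 0.21 (SE, 4 libraries a group). All libraries of the later number lay below all of number 1 in 15.6% of tested genes for number 4 and in 20.5% for number 10. KIX and KI overlapped at numbers 1 and 10, with log2 differences of -0.22 ± 0.30 and 0.02 ± 0.30 (SE), while at number 4 both KIX libraries lay under both KI libraries, with a difference of -0.51 ± 0.30 (SE) between low levels.

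Crct1 lies at chr3:93014205-93015686, in the same complex. Its number 1 libraries had 27.6 and 18.97 FPKM in KIX D and V and 35.5 and 22.8 FPKM in KI D and V. Number 4 gave 4.85 and 2.22 FPKM in KIX and 3.36 and 2.55 FPKM in KI, and number 10 gave 2.27 and 3.61 FPKM in KIX and 4.40 and 4.73 FPKM in KI. EBs had 0.407 and 0.102 FPKM in KIX and 0.314 and 0.436 FPKM in KI. The order of the levels was therefore number 1, then numbers 4 and 10, whose ranges overlap, then EBs, with gaps between these 3 levels in every library. The log2 differences were -2.68 ± 0.21 for number 4 against 1, -2.51 ± 0.21 for number 10 against 1 and -2.61 ± 0.17 for EBs against iPSCs (SE). KIX and KI overlapped at numbers 1 and 4 and in EBs, and at number 10 both KIX libraries lay under both KI libraries, by -0.52 ± 0.30 (SE). At number 1 the mean of 26.2 FPKM placed Crct1 above 84.8% of the listed genes, against 38.2% in EBs.

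Sprr1a lies at chr3:92483954-92485881. At number 1 it had 6.02 and 3.13 FPKM in KIX D and V and 6.01 and 4.45 FPKM in KI D and V. It measured 0.987 and 1.21 FPKM in KIX and 0.907 and 1.05 FPKM in KI at number 4, and 0.813 and 2.11 FPKM in KIX and 1.65 and 2.17 FPKM in KI at number 10. EBs had 5.04 and 5.51 FPKM in KIX and 5.79 and 5.69 FPKM in KI. The number 1 libraries lay above those of numbers 4 and 10 without overlap, by log2 differences of -1.50 ± 0.19 for number 4 against 1 and -1.14 ± 0.19 for number 10 against 1 (SE). Alone among the members, Sprr1a was at its number 1 level in EBs, where 5.51 ± 0.33 FPKM (SD, 4 libraries) stands beside 4.90 ± 1.4 FPKM at number 1 (SD, 4 libraries). Those ranges overlap. Between KIX and KI the libraries overlapped at every number, and in EBs both KIX libraries lay just under both KI libraries, by -0.10 ± 0.26 (SE).

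Psors1c2 lies at chr17:35533201-35534647, outside the complex. It had 17.9 and 12.2 FPKM in KIX D and V and 25.2 and 24.3 FPKM in KI D and V at number 1. Number 4 gave 8.16 and 7.46 FPKM in KIX and 15.9 and 15.99 FPKM in KI, and number 10 gave 7.55 and 7.23 FPKM in KIX and 11.9 and 15.0 FPKM in KI. EBs had 2.64 and 2.52 FPKM in KIX and 5.24 and 3.26 FPKM in KI. Both KIX libraries lay under both KI libraries at every number and in EBs, the same direction throughout, with log2 differences of -0.70, -0.94, -0.78 and -0.53 at numbers 1, 4 and 10 and in EBs (SE 0.18 each). Both KIX libraries were lower than both KI libraries in 27.0% of the 13895 tested genes at number 1, 26.0% at number 4, 34.0% at number 10 and 36.7% in EBs. Within each prefix the number 1 libraries lay above those of numbers 4 and 10, and EBs lay lowest. Pooled over the prefixes, number 1 overlapped numbers 4 and 10, since KI at number 4 exceeded the KIX V library at number 1.

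**Figure D1:**
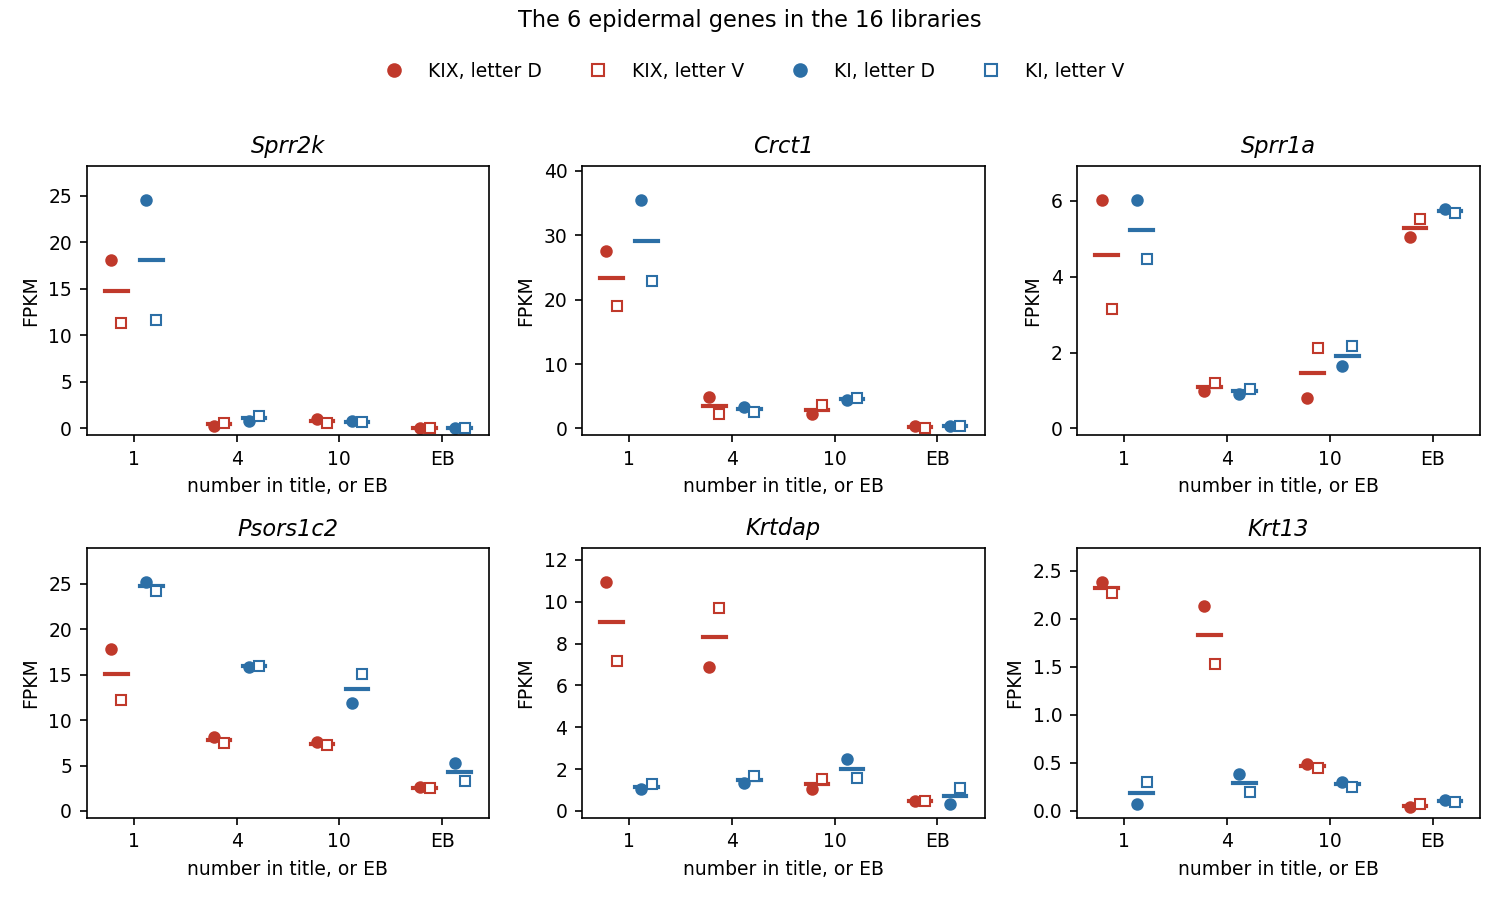
FPKM of the 6 members in each of the 16 libraries by number or EB, with KIX (red) left of KI (blue), filled circles for D, open squares for V and a bar for the group mean. Sprr2k and Crct1 are high at number 1 in both prefixes, Sprr1a is also high in EBs, and Krtdap and Krt13 are high in the KIX libraries of numbers 1 and 4.

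Krtdap lies at chr7:30787905-30791089. At number 1 it had 10.9 and 7.16 FPKM in KIX D and V and 1.03 and 1.31 FPKM in KI D and V, and at number 4 it had 6.89 and 9.71 FPKM in KIX and 1.34 and 1.65 FPKM in KI. At number 10 the KIX libraries had 1.06 and 1.52 FPKM and the KI libraries 2.46 and 1.55 FPKM. EBs had 0.470 and 0.482 FPKM in KIX and 0.312 and 1.08 FPKM in KI. The 4 KIX libraries of numbers 1 and 4 thus stood above all 12 others, whose highest was 2.46 FPKM. The KIX minus KI log2 difference was 2.19 ± 0.25 at number 1, 1.88 ± 0.25 at number 4, -0.39 ± 0.25 at number 10 and -0.16 ± 0.25 in EBs (SE).

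Krt13 lies at chr11:100117327-100121566. It showed the same split at a lower level, with 2.38 and 2.27 FPKM in KIX D and V against 0.0684 and 0.305 FPKM in KI D and V at number 1. At number 4 it had 2.13 and 1.53 FPKM in KIX and 0.380 and 0.202 FPKM in KI, and at number 10 it had 0.490 and 0.448 FPKM in KIX and 0.306 and 0.253 FPKM in KI. EBs had 0.0371 and 0.0712 FPKM in KIX and 0.111 and 0.0963 FPKM in KI. The log2 difference of KIX minus KI was 1.49 ± 0.12 at number 1, 1.13 ± 0.12 at number 4, 0.20 ± 0.12 at number 10 and -0.07 ± 0.12 in EBs (SE). KIX and KI did not overlap in any of the 4, but at number 10 and in EBs all values were under 0.5 FPKM. The summed level of 10 basal keratinocyte markers, mostly from Sfn and Itga6, split the same way, with 104 to 106 FPKM in KIX and 77.7 to 80.5 FPKM in KI at number 1 and 102 to 103 FPKM in KIX and 74.0 to 81.0 FPKM in KI at number 4. At number 10 it was 70.4 to 71.7 FPKM in KIX and 71.0 to 113 FPKM in KI, and its part in the levels of Krtdap and Krt13 was not tested. The share of tested genes with both KIX libraries higher was 28.9% at number 1, 33.2% at number 4 and 32.8% at number 10.

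The row listed as Mir203 had 1868 and 1969 FPKM in KIX D and V at number 1 and 2254 and 1728 FPKM in KIX D and V at number 4. It was listed at 0 in the 4 KI libraries of those numbers. The cells carry a miR-203 transgene, and this row does not tell its reads from those of the gene on chromosome 12. None of the 4 number 10 libraries had a value above 0, and EBs had 212 FPKM in KIX D, 90.1 FPKM in KI V and 0 in the other 2. The libraries with Mir203 at numbers 1 and 4 are the same 4 in which Krtdap and Krt13 were highest. FPKM of so short a gene is inflated by its length, polyA libraries do not measure mature microRNA, and whether the microRNA has a part in these levels was not tested.

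**Figure D2:**
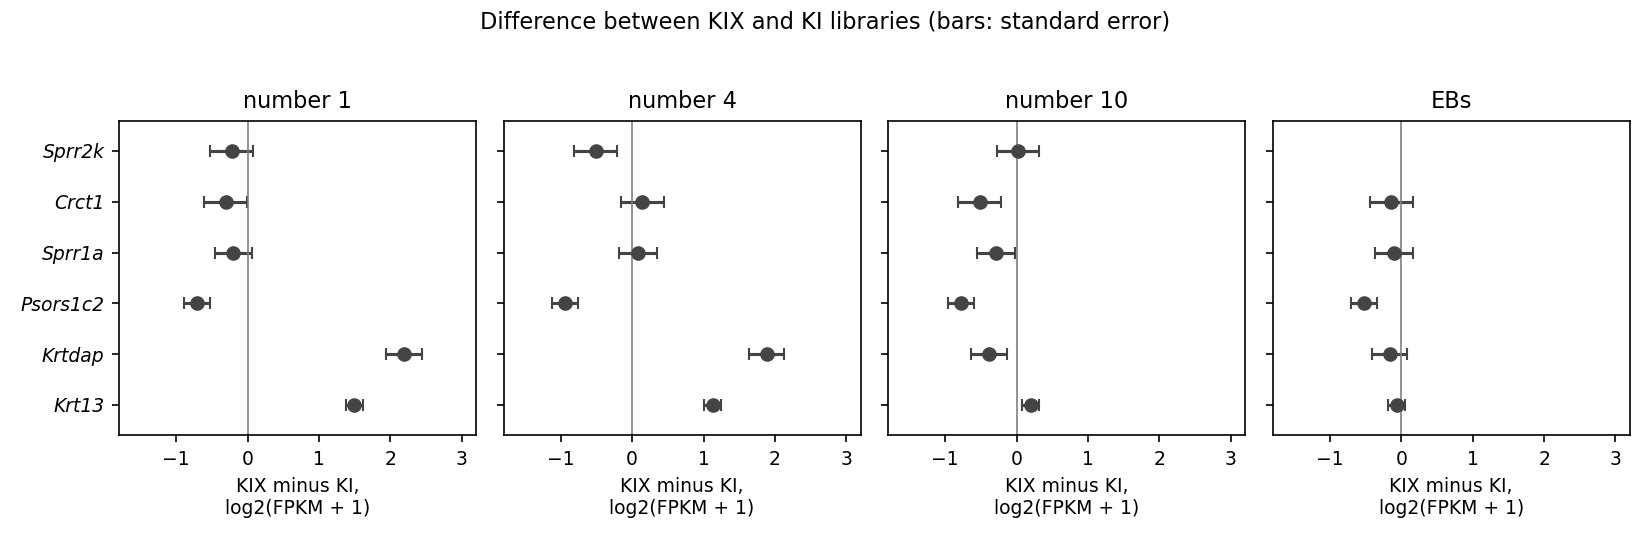
KIX minus KI difference in log2(FPKM + 1) of each member at numbers 1, 4 and 10 and in EBs, with bars for the standard error of the fit and no point for Sprr2k in EBs, where it was listed at 0. Krtdap and Krt13 lie above 0 at numbers 1 and 4, Psors1c2 lies under 0 at every number and in EBs, and the bars of Sprr1a reach 0 at numbers 1 and 4 and in EBs.

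The letter moved with some members. At number 1, D exceeded V in both prefixes for Sprr2k, Crct1 and Sprr1a. The D minus V log2 difference of Sprr2k was 0.63 in KIX and 1.02 in KI, that of Crct1 was 0.52 in KIX and 0.61 in KI, and that of Sprr1a was 0.76 in KIX and 0.36 in KI. Krtdap and Psors1c2 differed this way in KIX (0.55 and 0.51) and hardly in KI (-0.18 and 0.05). At numbers 4 and 10 the sign differed between the 3 genes of the complex. The fibroblast marker sum at number 1 was 1726 FPKM in KIX D, 1696 FPKM in KIX V, 2531 FPKM in KI D and 1778 FPKM in KI V, so it was higher in D than in V in KI and nearly equal in KIX. At number 4 it was 1143 to 1325 FPKM over the 4 libraries, and at number 10 it was 1469 and 1574 FPKM in KIX and 2205 and 2566 FPKM in KI. The part of feeder or fibroblast RNA in the members' levels was not tested.

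The stretch of the complex on chromosome 3 between S100a10 and S100a1 (chr3:90514330-93555117) held 63 tabulated genes. Of these, 18 reached 1 FPKM in any library and 12 were listed at 0 in all. S100a1, S100a10 and S100a13, which are in the S100 list used below, are not among the 63. Sprr2k and Crct1 are separated by 26 tabulated genes, and 22 of these stayed under 1 FPKM in every library. Among the nearest neighbours, Sprr1b and Sprr3, both small proline-rich genes, peaked at 0.276 and 0.267 FPKM, and Lce1m, beside Crct1, at 0.0693 FPKM. The members' levels were thus not shared by these named genes beside them. Ivl, also among the nearest neighbours of Sprr1a, reached 4.66 FPKM, and Gm4858, among those of Crct1, reached 1.70 FPKM.

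Of the 15 genes of this stretch that are not members and reached 1 FPKM, 1 had all number 1 libraries above all libraries of numbers 4 and 10. This was so for 1124 of the 13895 tested genes (8.09%). The gene of the stretch was Sprr2h, a close paralogue of Sprr2k, with 5.80 and 2.64 FPKM in KIX D and V and 4.59 and 2.96 FPKM in KI D and V at number 1. Its group means at numbers 4 and 10 were 0.0480 to 0.389 FPKM, and it was listed at 0 in EBs. The log2 difference of Sprr2h was -1.87 for number 4 against 1 and -2.13 for number 10 against 1. These values are a description without a test. Sprr2h was named for its high number 1 libraries and reached 1 FPKM only in them. Sprr2 genes are so alike in sequence that reads can be split between them, so the pair's levels are not independent and the share of each is uncertain.

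Ivl, the involucrin gene, had 3.47 and 2.96 FPKM in KIX and 4.27 and 4.66 FPKM in KI at number 1. It had 3.09 and 3.12 FPKM in KIX and 2.24 and 2.36 FPKM in KI at number 4, and 1.85 and 2.48 FPKM in KIX and 3.76 and 3.93 FPKM in KI at number 10. Ivl fell at number 4 against 1 by 0.38 and at number 10 against 1 by 0.30 (limma adjusted p = 0.00179 and 0.00432), though the libraries of the numbers overlapped. In KIX against KI it rose at number 4, by 0.32 (limma adjusted p = 0.0443), and fell at number 10, by 0.62 (limma adjusted p = 0.00293). In EBs it was under 0.2 FPKM in all 4 libraries, a log2 difference of -1.88 against iPSCs (limma adjusted p = 5.64e-11). Lor, the loricrin gene, was instead higher in EBs, with 0.819 to 1.78 FPKM in EBs and at most 0.582 FPKM in iPSCs, by 0.90 (adjusted p = 5.23e-06). Lce6a was also higher in EBs, by 1.32 (adjusted p = 1.71e-09). Lor and Lce6a reached 1 FPKM only in EBs, so they passed the filter through the group in which they were called higher. Ivl reached 1 FPKM only in iPSCs, so it too passed the filter through the group in which it was high. Sprr1a was higher in EBs than at numbers 4 and 10 but overlapped number 1, while Sprr2k and Crct1 were lower in EBs, as Ivl was. Either direction was common, with 44.4% of all tested genes called higher in EBs than in iPSCs and 42.2% lower.

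**Figure D3:**
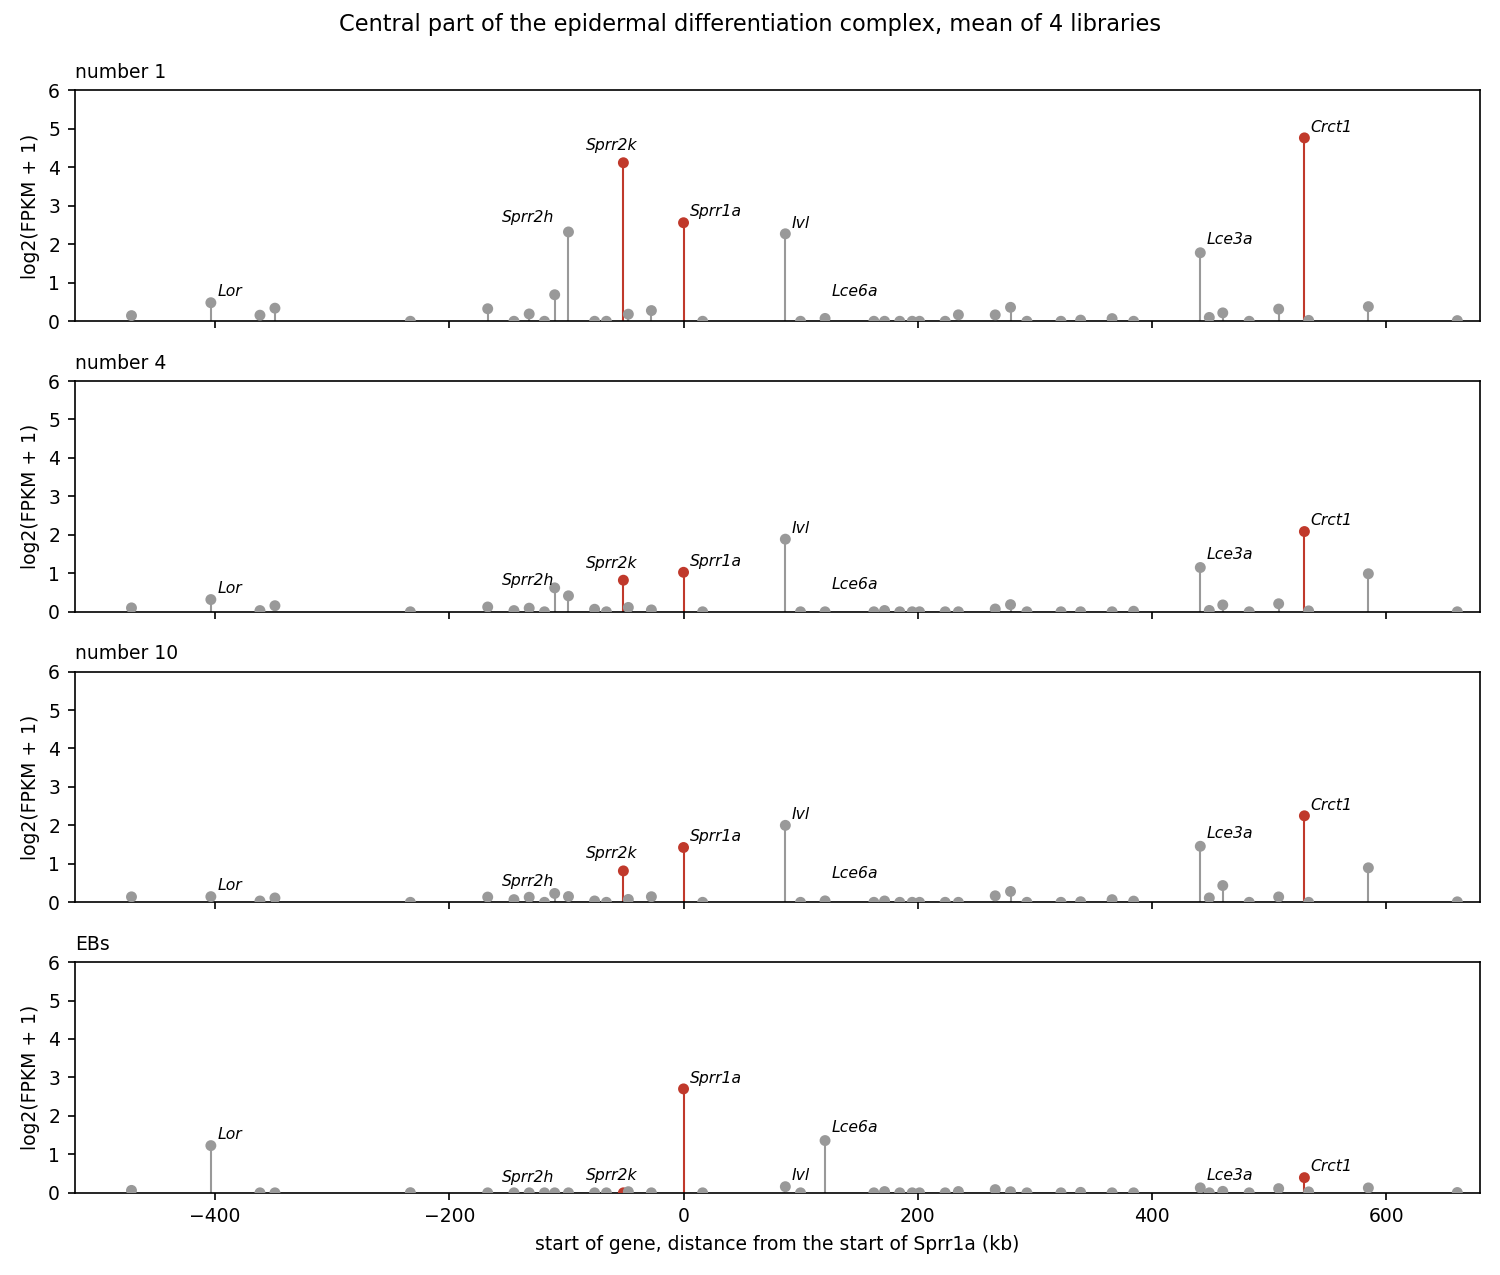
Mean log2(FPKM + 1) over the 4 libraries of number 1, 4, 10 and EBs for tabulated genes in the central part of the epidermal differentiation complex, by distance of the gene start from that of Sprr1a in kb, with the members in red. Sprr2k, Sprr1a and Crct1 stand among genes near 0 at number 1, and Sprr1a is the tallest in EBs.

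Outside the complex, some neighbours had KIX above KI without overlap at number 1 or 4. This was also so for 28.9% of all tested genes at number 1 and 33.2% at number 4. Dmkn, a suprabasal gene and the nearest to Krtdap, had 1.97 and 1.53 FPKM in KIX and 1.21 and 1.03 FPKM in KI at number 1, and 1.09 and 0.849 FPKM in KIX and 0.756 and 0.586 FPKM in KI at number 4. KIX was thus above KI without overlap, but the log2 differences of 0.37 and 0.24 did not pass the test (limma adjusted p = 0.526 and 0.576), and the prefixes overlapped at number 10. Sbsn, another suprabasal gene there, overlapped at number 1, with 4.57 and 5.22 FPKM in KIX and 5.59 and 3.42 FPKM in KI. At number 4 it did not overlap, with 5.97 and 6.18 FPKM in KIX and 5.28 and 4.27 FPKM in KI, a difference of 0.30 that did not pass the test (adjusted p = 0.441). Krt36 and Krt15, on either side of Krt13, stayed under 0.42 FPKM. Krt19, the simple keratin gene beyond Krt15, had 18.98 and 14.1 FPKM in KIX and 10.1 and 8.49 FPKM in KI at number 1, a difference of 0.76 that did not pass the test (adjusted p = 0.121), and overlapped at number 4. Cdsn, which encodes corneodesmosin and lies next to Psors1c2, ran opposite to Psors1c2 over the numbers. Its log2 difference was 0.43 for number 4 against 1 (limma adjusted p = 0.000384) and 0.87 for number 10 against 1 (adjusted p = 1.59e-06), with 1.68 and 1.65 FPKM in KIX and 2.18 and 2.33 FPKM in KI at number 10. Cdsn reached 1 FPKM only at numbers 4 and 10, so it passed the filter through the groups in which it was called higher.

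Genes with the most similar pattern were ranked by Pearson's r of log2(FPKM + 1) over the 16 libraries, which share groups and scaling, so r is a description. For Sprr2k these were Sprr2h (r = 0.974), the chemokine gene Ccl6 (0.952) and the retinoic acid synthesis gene Aldh1a3 (0.948). For Crct1 they were the protease inhibitor gene Serpinb2 (0.979), Ces2e (0.972) and Tll1 (0.967). Serpinb2 had 6.54 and 7.10 FPKM in KIX D and V and 6.86 and 6.83 FPKM in KI D and V at number 1, so it lacked the D and V gap seen in Crct1. Sprr1a was closest to the phosphatase gene Dusp10 (0.940), Lbh (0.939) and the kinase gene Map2k4 (0.932). Psors1c2 was closest to the transcription factor gene Foxn4 (0.971), the Wnt ligand gene Wnt8a (0.949) and Rps6kl1 (0.947).

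Krtdap and Krt13 were near each other (r = 0.942) and shared Padi2, a peptidylarginine deiminase gene, as the closest gene (0.954 to Krtdap and 0.976 to Krt13). The other genes were Bmp8b for Krtdap (0.941) and Atp2a3 and Nccrp1 for Krt13 (0.953 and 0.952). Padi2 had 2.30 and 2.23 FPKM in KIX and 1.03 and 0.932 FPKM in KI at number 1, and 2.26 and 2.11 FPKM in KIX and 1.11 and 0.955 FPKM in KI at number 4. The split was absent at number 10, with 1.06 and 1.22 FPKM in KIX and 1.12 and 1.10 FPKM in KI. Over the 12 iPSC libraries alone, 1 of the 3 closest genes was the same for each of Sprr2k, Krtdap, Krt13 and Psors1c2, and none for Crct1 and Sprr1a, so most of the closest genes changed when the EBs were left out.

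Beyond the members, 7 lists of 165 epidermal and epithelial genes were examined, of which 156 were listed and 77 passed the filter. The lists hold envelope genes of the complex, S100 genes of the complex, late epidermal genes outside it, stratified keratins, simple keratins, differentiation regulators, and desmosome and junction genes. In KIX against KI at number 1, 7 of the 77 genes (9.09%) rose and 0 fell by limma at an adjusted p under 0.05 (17 higher and 6 lower at an unadjusted p under 0.05), where 2.2% of all tested genes were called 1.56% higher and 0.641% lower. The list median was 0.03 on the log2 scale, against 0.00 for all tested genes. Of the 5 tested stratified keratin genes 3 rose, which are Krt17, by 1.16 (adjusted p = 0.000579), Krt14, by 0.86 (adjusted p = 0.00877), and Krt16, by 0.81 (adjusted p = 0.00714). Krt14 is the partner of the basal keratin Krt5, and Krt16 and Krt17 are keratins of stressed or appendage epithelium. Krt14 and Krt16 reached 1 FPKM only in KIX libraries of numbers 1 and 4. They thus passed the filter only through the prefix in which they were called higher.

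Krt17 had 24.5 and 25.4 FPKM in KIX and 9.95 and 11.3 FPKM in KI at number 1. Krt14 had 1.41 and 1.18 FPKM in KIX and 0.382 and 0.147 FPKM in KI. Klf4, a transcription factor of both epidermal differentiation and pluripotency, rose by 1.03 (limma adjusted p = 0.0368), with 61.5 and 57.6 FPKM in KIX and 29.6 and 27.8 FPKM in KI. The others that rose were Alox12b, a lipoxygenase of the skin barrier, by 0.53 (adjusted p = 0.0355), and the desmosome genes Dsp, by 0.50 (adjusted p = 0.0296), and Dsc2, by 0.45 (adjusted p = 0.0105). Alox12b reached 1 FPKM only in KIX at number 1, so it passed the filter through the group in which it was called higher. The list count includes Alox12b, and also Krt14 and Krt16. None of the 6 tested envelope genes of the complex passed the test (0 higher and 2 lower at an unadjusted p under 0.05). The list count rests on each of the 4 libraries of number 1: it was 1 without KIX D, 2 without KIX V, 3 without KI D and 1 without KI V. The number of genes called among all tested fell with it, to 68, 40, 82 and 91 in the same order, against 306 with all libraries. With a pseudocount of 0.1 the list count was 4 higher and 1 lower.

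In KIX against KI at number 4, 12 of the 77 genes rose and 10 fell (28.6% in all), where 19.6% of all tested genes were called, 11.3% higher and 8.29% lower. Krt14 rose by 1.53 (limma adjusted p = 4.99e-05), with 2.64 and 2.12 FPKM in KIX and 0.0308 and 0.323 FPKM in KI, and Krt16 by 0.72 (adjusted p = 0.00252). Both passed the filter only through KIX libraries of numbers 1 and 4, as given above. The simple keratin genes Krt8, Krt18 and Krt7, of single-layered epithelia, rose by 0.81, 0.56 and 0.59 (adjusted p = 0.000379, 0.00216 and 0.00987). Desmosome genes split: Dsp rose by 1.13 and Dsg2 by 0.90, while the plakophilin gene Pkp2 fell by 1.00 (adjusted p = 5.51e-05, 0.00109 and 0.000129). The list median was 0.04, against 0.02 for all genes. The count was 14 without KIX D at number 4, where 1026 of all tested genes were called, against 2725 with all libraries.

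In KIX against KI at number 10, 2 of the 77 rose and 26 fell (36.4% in all), where 24.6% of all tested genes were called, 9.94% higher and 14.6% lower. Of the S100 genes 7 of 10 fell, among them S100a8, a calprotectin subunit gene, by 1.01 (limma adjusted p = 0.0202). The simple keratin genes Krt8, Krt18 and Krt7 fell by 1.28, 0.81 and 0.71 (adjusted p = 0.000318, 0.00127 and 0.00458), the opposite direction to number 4, a change that was not tested. The stratified keratins, Krt14 included, had no call at number 10 by limma (0 higher and 1 lower at an unadjusted p under 0.05). Tgm1, a transglutaminase that cross-links the envelope, rose by 0.34 (adjusted p = 0.0207). The list median was -0.18, against 0.00 for all genes, and the count was 14 without KIX D and 17 without KIX V at number 10, where 697 and 1774 of all tested genes were called, against 3414 with all libraries. The fibroblast marker sum was lower in KIX than in KI at number 10, as given above. S100a4 of the S100 list is also among those fibroblast markers, with means of 245 FPKM in KIX and 407 FPKM in KI at number 10. The part of fibroblast RNA in the S100 falls was not tested.

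In KIX against KI in EBs, 13 of the 77 rose and 18 fell (40.3% in all), where 27.3% of all tested genes were called, 12.4% higher and 15.0% lower. Scel, the sciellin gene, whose product is an envelope precursor, fell by 1.05 (limma adjusted p = 0.000245), and S100a16 rose by 0.93 (adjusted p = 0.00012). The simple keratin gene Krt20 rose by 2.2 (adjusted p = 0.000333), with 7.58 and 6.50 FPKM in KIX and 1.52 and 0.209 FPKM in KI. None of the 6 tested envelope genes passed the test by limma (1 higher and 0 lower at an unadjusted p under 0.05). The count was 16 without KI V, and 6 with the fibroblast marker level as a covariate, where 1946 and 656 of all tested genes were called, against 3796 with all libraries and no covariate. In EBs the fibroblast sum was 489 and 160 FPKM in KIX D and V and 47.0 and 24.1 FPKM in KI D and V.

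Between the numbers, the lists moved downward more than upward. In number 4 against 1, 9 of the 77 rose and 26 fell (45.5% in all), where 38.6% of all tested genes were called, 16.9% higher and 21.7% lower. In number 10 against 1, 13 rose and 39 fell (67.5% in all), where 51.9% were called, 25.0% higher and 27.0% lower. The list medians were -0.15 and -0.28, against -0.02 and -0.01 for all genes. Desmosome and junction genes fell in 10 of 16 cases at number 4 and in 14 of 16 at number 10, with no rise in either (also 0 at an unadjusted p under 0.05), such as the claudin gene Cldn7, by 0.73 and 1.76 (limma adjusted p = 0.000785 and 1.2e-06). Zfp750, a regulator of terminal differentiation, fell by 0.78 and 0.87 (adjusted p = 1.17e-05 and 1.71e-06). Tgm1 went against this direction, higher by 0.59 at number 4 and by 1.20 at number 10 (adjusted p = 8.18e-05 and 3.18e-07). Both contrasts use the same number 1 libraries. Where KIX and KI were instead treated as the 2 libraries of a letter and number, the counts were 16 for number 4 and 32 for number 10, where 8.53% and 25.4% of all tested genes were called. The summed level of 10 trophoblast markers, which include Krt7 and Tfap2c of the lists, was 55.3 to 61.5 FPKM at number 1, 47.6 to 53.4 FPKM at number 4 and 26.4 to 45.0 FPKM at number 10. It was lower at numbers 4 and 10 than at number 1 without overlap, and its part in these counts was not tested.

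**Figure D4:**
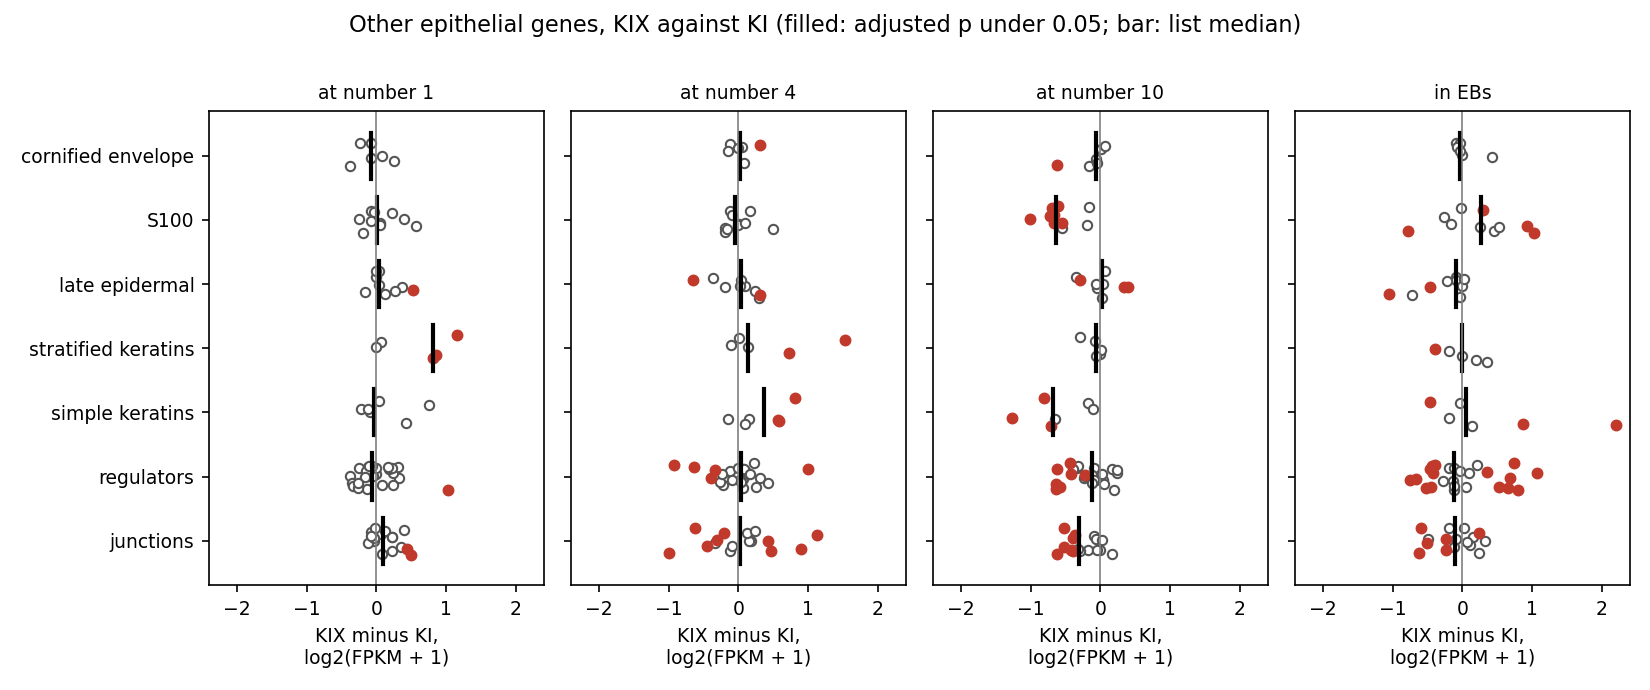
KIX minus KI log2 differences of the 77 tested list genes, a point for each gene by list, at numbers 1, 4 and 10 and in EBs, with filled red points for genes with adjusted p under 0.05, a black bar for the list median and a small random vertical offset. At number 1 the 7 called genes all lie above 0, with a list median of 0.81 for the stratified keratins, and at number 10 the medians of the S100 genes and simple keratins lie at -0.63 and -0.68.

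In EBs against iPSCs, 42 of the 77 list genes rose and 26 fell (88.3% in all), where 86.6% of all tested genes were called, 44.4% higher and 42.2% lower, so the share of the lists is near the background. Simple keratins rose in 6 of 6 cases, with Krt19 higher by 5.48 (limma adjusted p = 8.99e-12), and junction genes in 15 of 16, with Dsp higher by 4.50 (adjusted p = 1.05e-13). Stratified keratins split, Krt17 falling by 2.60 and Krt14 by 0.63 and Krt6a rising by 1.64 (adjusted p = 6.6e-12, 1.04e-05 and 1.72e-09). Scel rose by 3.45 and Tgm1 fell by 1.75 (adjusted p = 3.63e-12 and 4.46e-11). Scel reached 1 FPKM only in EBs, and Krt17 and Krt14 only in iPSCs. Scel, Krt17 and Krt14 thus passed the filter only through the group in which each was high. Of the members, Crct1, Psors1c2 and Sprr2k had all 4 EB libraries below all 12 iPSC libraries, as had 27.5% of the tested genes, and Krtdap, Krt13 and Sprr1a overlapped. The EB minus iPSC log2 difference was 1.05 ± 0.15 for Sprr1a, -1.70 ± 0.11 for Psors1c2, -1.31 ± 0.14 for Krtdap and -0.68 ± 0.07 for Krt13 (SE). The fibroblast sum was also lower in all 4 EB libraries, and its part in these values was not tested. With the fibroblast marker level as a covariate the list count was 36, where 27.9% of all tested genes were called.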

How the data were processed

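PolyA RNA of 12 iPSC and 4 EB libraries was sequenced with a strand-marked (dUTP) TruSeq kit on a HiSeq2500, per the labels' protocols. The submitters' processing notes name TopHat2 2.0.10 and Bowtie 1.0.0 with the build GRCm38 (mm10), besides Cufflinks 2.2.1, FastQC and SAMtools 0.1.19. Settings and annotation version are not given in the sources used here. A single deposited table holds FPKM for 23284 genes in 16 libraries, every column matching a title. An exact 0 can be a failed estimate, and reads of near-identical genes can be split between them. Only 42.3% of 46331 low values lay within 0.1 of a whole read, so the depth is unknown and no count model, counting interval or floor is given.

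A linear model with 8 group means was fitted to log2(FPKM + 1) using limma 3.58.1 (R 4.3.3), with trended empirical Bayes moderation. It covered 13895 genes that reached 1 FPKM in 2 or more libraries, and two-sided p-values were adjusted by Benjamini-Hochberg and called under 0.05. The steps were tested on simulated data. The members and lists were chosen with earlier results of these data known, and the members are not in the lists. Standard errors of members come from this fit. Genes named from a list were up to 4 called with the largest difference or, with none called, up to 2 with the highest mean. Also named were genes of the complex reaching 1 FPKM, the 2 nearest tabulated genes on each side and the 3 most similar genes. Fibroblast, pluripotency and keratinocyte marker lists, and trophoblast and endoderm lists, were summed per library. The trophoblast sum was 50.6 to 70.1 FPKM in EBs and 26.4 to 61.5 FPKM in iPSCs, and the endoderm sum was 1903 to 3348 FPKM in EBs and 12.0 to 25.1 FPKM in iPSCs. The basal keratinocyte sum was 48.8 to 53.1 FPKM in EBs and 70.4 to 113 FPKM in iPSCs, and the suprabasal sum was 8.26 to 14.5 FPKM in EBs and 14.3 to 20.5 FPKM in iPSCs. Promoters and the microRNA came from RefSeq tables (GRCm38.p6) and 3′ UTRs from GENCODE vM21. Of the table's genes, 98.9% matched RefSeq.

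Alternatives were another pseudocount (0.1), other filters on low values, quantile normalization, the letter as a block, a fibroblast covariate, letter by number means and leaving out each library.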

Additional observations from a re-analysis of the deposited data

Results flagged for a closer look

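The KIX minus KI difference of Krtdap had opposite directions at different numbers, without overlap of the libraries. It was 2.19 at number 1 and 1.88 at number 4 on the log2(FPKM + 1) scale, with both KIX libraries above both KI libraries, and -0.39 at number 10, with both KIX libraries below. The SE was 0.25 each. At number 10 the nearest libraries had 1.52 FPKM in KIX and 1.55 FPKM in KI, and both KIX libraries were lower in 34.0% of all tested genes. The direction for Krt13 differed between iPSCs and EBs, with differences of 1.49, 1.13 and 0.20 at numbers 1, 4 and 10 and -0.07 in EBs (SE 0.12 each). In these EBs every value of Krt13 was under 0.12 FPKM, and both KIX libraries were lower in 36.7% of all tested genes. The change of direction was not tested for either gene.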

How the results depend on the processing

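The number of list genes called stayed within 1.5 times under the other pseudocount, both filters and quantile normalization in all 7 comparisons. With the fibroblast covariate it was 6 for KIX against KI in EBs and 36 for EBs against iPSCs, and with letter by number means it was 16 for number 4 against 1 and 32 for number 10 against 1. The causes were not tested. Leaving out 1 library gave 1 to 8 at number 1, 14 to 22 at number 4, 14 to 29 at number 10 and 16 to 32 in EBs for KIX against KI. It gave 29 to 39 for number 4 against 1, 47 to 55 for number 10 against 1 and 66 to 70 for EBs against iPSCs. The D minus V differences of KIX and of KI correlated over the tested genes with r from -0.0587 to 0.113. This does not speak for single genes, such as those with D above V in both prefixes at number 1. With the letter as a replicate block the counts were 5, 21, 28 and 31 for KIX against KI at numbers 1, 4 and 10 and in EBs, and 36, 52 and 69 for the other 3.

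Under quantile normalization all 42 member differences kept their sign and stayed within 1 residual SD of the gene. With a pseudocount of 0.1, 20 of the 42 moved by more than that, 19 of them to a larger size in the same direction. For KIX against KI, Krt13 was then 3.21 at number 1, 2.32 at number 4 and 0.59 at number 10, Krtdap was 2.83 at number 1 and 2.38 at number 4, and Sprr2k was -1.12 at number 4. Sprr2k was -4.34 for number 4 against 1 and -4.21 for number 10 against 1, and Krt13 changed sign for number 4 against 1, to 0.10. Leaving out a library of the comparison moved 18 of 288 member values by more than 1 residual SD and changed the sign of 15, with no sign change for Krtdap or Krt13 in KIX against KI at number 1 or 4. The unknown depth limits all values under about 1 FPKM, which covers Krt13 outside KIX at numbers 1 and 4.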
